A study of Mus musculus with 4 samples.

Results

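Integrins are the surface receptors through which cells hold on to matrix proteins, and the secreted matrix protein CYR61 acts through several of them. The 10 genes described here, of 32285 in the deposited tables, encode chains of the CYR61-binding integrins and, with Sdc4, a co-receptor. They are Itgam, Itgb2, Itgav, Itgb1, Itgb3, Itgb5, Itga6, Itgax, Itgad and Sdc4. They were chosen by name, and each had at least 1 count in at least 1 library. The series holds 4 droplet single-cell RNA libraries of mouse liver cells, 2 labelled KO and 2 labelled Control. KO stands for a knockout of Cyr61, which the tables list under its current symbol Ccn1. The mice of both groups were male, are labelled with the strain Cyr61fl/fl, in which the gene can be cut out by Cre, were 24 weeks old and had eaten a diet that induces steatohepatitis (NASH diet) for 12 weeks. The labels do not say in which cells the gene was deleted or whether a library is 1 animal, so p-values measure the spread between these libraries only. Livers had been kept frozen in serum with 10% DMSO and, once thawed, were digested with enzymes, and dead cells were taken out on a column.

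CYR61 belongs to the CCN family of matricellular proteins and has no dedicated receptor. It binds integrins, each a pair of an alpha and a beta chain, and which pair a cell carries sets how it can respond. On monocytes and other myeloid cells CYR61 is bound by αMβ2, made of the Itgam and Itgb2 products and also known as Mac-1 or CD11b/CD18, and the related alpha chains encoded by Itgad and Itgax pair with the same beta chain. On endothelial cells and fibroblasts the αv integrins, made of the Itgav product with that of Itgb1, Itgb3 or Itgb5, bind it. The α6β1 integrin, made of the Itga6 and Itgb1 products, binds it together with heparan sulphate proteoglycans such as syndecan-4, the product of Sdc4. In the liver, αMβ2 is carried by incoming monocytes and neutrophils, and αv and β1 integrins by the stellate cells that lay down collagen.

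The KO libraries held 7157 and 5065 cells after filtering and 17187561 and 17925516 unique molecular identifiers (UMIs, each 1 captured RNA molecule), and the Control libraries held 4718 and 7090 cells and 8290677 and 20537236 UMIs. Control 1 stood apart in depth, with a median of 1225 UMIs per cell against 1913 to 2869 in the other 3 libraries, and each pair of libraries shared 6 to 22 cell barcodes. Cells were put into classes from marker genes, none of which is among the 10 receptor genes, and 78.4 to 90.96% of the kept cells of a library met the markers of a class. A class name stands for cells that met those markers. Counts were summed per library and class and are given as counts per 1000000 UMIs of that class (CPM). They come from reads at 1 end of each transcript, so levels of 1 gene are compared between cells and levels of different genes are not compared. The classes cover mainly blood-borne cells. Kupffer cell markers summed to 0.818 and 0.172 CPM in the KO libraries and 7.47 and 4.32 CPM in the Control libraries over all kept cells, and endothelial markers to 6.95 and 8.53 CPM in the KO libraries and 31.6 and 15.4 CPM in the Control libraries. Stromal cells, which express stellate, fibroblast or mesothelial genes, were 0 and 0 cells in the KO libraries and 268 and 59 cells in the Control libraries, so receptor levels on stromal cells could be measured in Control libraries only. The targeted gene followed the labels. Ccn1 had 0 and 12 UMIs in the kept cells of the KO libraries, against 183 and 146 UMIs in the Control libraries, and 151 and 145 of those Control UMIs lay in stromal cells. Its loss over all kept cells (log2 fold change -5.28 ± 0.97 (SE), edgeR adjusted p = 0.0353) moved with the absence of stromal cells. The parts of the knockout and of that absence cannot be told apart. Ccn1 entered this test through its Control libraries, so the call is a description and no support. Without KO 1 the edgeR adjusted p was 0.0562, and DESeq2 gave an adjusted p of 0.0999.

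The 3 genes of the β2 partners lie side by side on chromosome 7 (GRCm38), in the order Itgam, Itgax, Itgad, with 11055 bases between the first pair and 3718 bases between the second. Itgam and Itgb5 gave the clearest separation between cell classes, as described below, and the 250 bases before their RefSeq starts are printed for that reason. Capitals mark the letters GAGGAA, the core bound by the myeloid factor PU.1, and GGGCGG, the GC box, searched on both strands, so that TTCCTC and CCGCCC are their other-strand forms. Sequences are from RefSeq (GRCm38.p6), 5′ to 3′ on the plus strand, at chr7:128062390-128062639 for Itgam and chr16:33829415-33829664 for Itgb5.
Itgam: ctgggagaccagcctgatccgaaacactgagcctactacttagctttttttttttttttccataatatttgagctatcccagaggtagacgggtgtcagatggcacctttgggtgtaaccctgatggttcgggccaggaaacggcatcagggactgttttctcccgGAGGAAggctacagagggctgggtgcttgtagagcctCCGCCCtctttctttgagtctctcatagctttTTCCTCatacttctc
Itgb5: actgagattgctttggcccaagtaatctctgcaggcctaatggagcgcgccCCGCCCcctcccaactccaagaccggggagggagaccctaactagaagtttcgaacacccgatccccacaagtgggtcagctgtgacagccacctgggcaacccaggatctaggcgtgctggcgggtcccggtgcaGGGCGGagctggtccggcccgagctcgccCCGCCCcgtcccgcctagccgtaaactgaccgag
The Itgam window held the PU.1 core at -84 and -15 and the GC box at -47, counted from the start. The Itgb5 window held the GC box at -199, -63 and -34. Of all 32851 RefSeq promoter windows of this length, 23.3% held the PU.1 core and 32.7% the GC box, and a match is a run of letters and not a measured binding site. Promoter sequences were matched for 6 of the 10 genes, Itgam, Itgb5, Itgav, Itgb1, Itgax and Sdc4. The Itgav window held the PU.1 core at -218 and -7. The Itgb1 window held it at -9 and the GC box at -151. The Sdc4 window held the GC box at -166, -154, -72 and -50, and the Itgax window held neither run of letters. No link between these letters and the level of a gene in a class was tested.

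Of the β2 integrin genes, Itgam divided most myeloid classes and the NK cells from T and B cells. Itgam, the alpha chain of αMβ2, was at 516 and 316 CPM in the KO libraries, against 338 and 519 CPM in the Control libraries in neutrophils. In classical monocytes, the Ly6c2-expressing cells that enter inflamed tissue, Itgam was at 254 and 284 CPM in the KO libraries, against 159.8 and 167 CPM in the Control libraries. Natural killer (NK) cells and type 1 innate lymphoid cells (ILC1), gated together, had 214 and 187 CPM in the KO libraries, against 91.1 and 67.2 CPM in the Control libraries. Conventional dendritic cells had 66.6 and 80.97 CPM in the KO libraries, against 63.5 and 95.5 CPM in the Control libraries. T cells had 2.22 and 1.98 CPM in the KO libraries, against 3.45 and 1.702 CPM in the Control libraries. B cells had 2.82 and 1.93 CPM in the KO libraries, against 2.69 and 2.17 CPM in the Control libraries. Both lay far below the classes just named in every library. Plasmacytoid dendritic cells, a separate dendritic class, held 1 and 0 Itgam UMIs in the KO libraries and 0 and 1 in the Control libraries. No Itgam UMI was found in stromal cells. In the KO libraries the order was neutrophil, classical monocyte, NK or ILC1 and dendritic cell, with ranges that did not overlap. There C1q-expressing macrophages (8 and 4 cells) and patrolling monocytes (43 and 9 cells) were too few to be ranked. In the Control libraries these macrophages had 415 and 465 CPM of Itgam and overlapped with neutrophils. Patrolling monocytes had 144 and 249 CPM in the Control libraries and overlapped with classical monocytes. NK or ILC1 cells and dendritic cells also overlapped in the Control libraries.

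The shared beta chain Itgb2 was present in every blood-borne class. It was at 455 and 337 CPM in the KO libraries, against 460.2 and 395 CPM in the Control libraries in neutrophils and at 351 and 396 CPM in the KO libraries, against 280.5 and 265 CPM in the Control libraries in NK or ILC1 cells, ranges that overlapped in the KO libraries. T cells had 139.6 and 140.2 CPM in the KO libraries, against 180.2 and 161 CPM in the Control libraries, and B cells had the lowest level of the tested classes, at 37.5 and 38.2 CPM in the KO libraries, against 35.02 and 39.96 CPM in the Control libraries. Stromal cells carried almost none, with 0.839 and 3.19 CPM in the Control libraries. Itgax, the CD11c chain used as a dendritic cell label, was at 166 and 146 CPM in the KO libraries, against 175 and 169.9 CPM in the Control libraries in NK or ILC1 cells, a level like that of the conventional dendritic cells in Control libraries (187 and 156 CPM) but not in both KO libraries (133 and 37.8 CPM). The KO dendritic values rest on 12 and 7 UMIs. In the monocyte or macrophage class Itgax was at 18.5 and 21.2 CPM in the KO libraries, against 55.99 and 32.3 CPM in the Control libraries. Itgad, the chain of αDβ2, was close to the limit of detection, with 30 and 20 UMIs in the KO libraries, against 12 and 20 UMIs in the Control libraries over all kept cells. Its highest level in a tested class was 9.83 and 5.21 CPM in the KO libraries, against 0 and 3.95 CPM in the Control libraries, in NK or ILC1 cells.

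**Figure D1:**
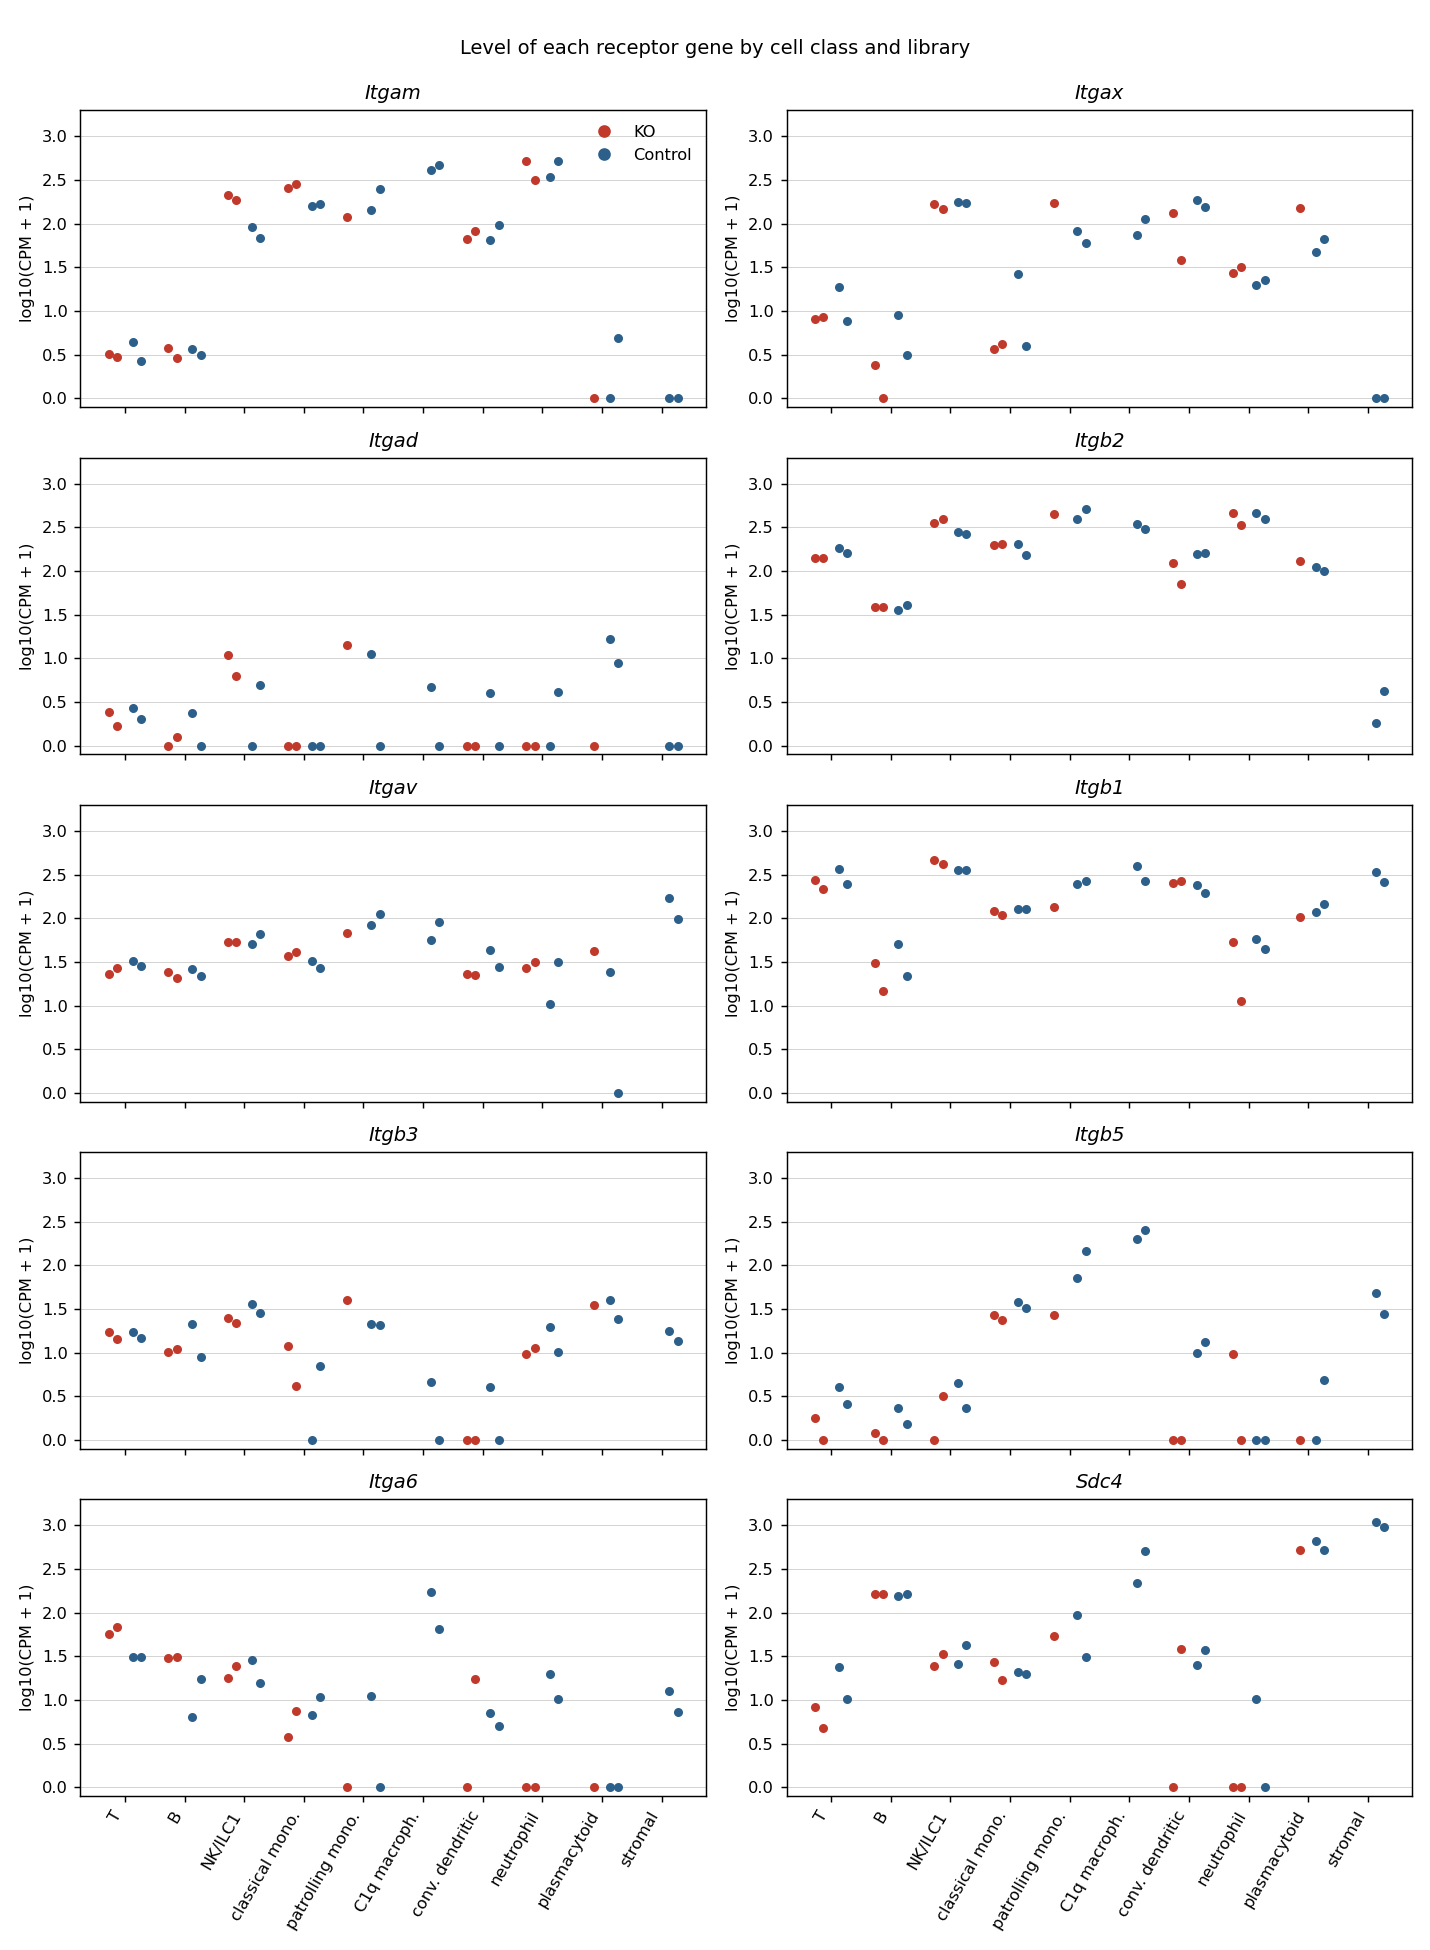
Level of each of the 10 receptor genes by cell class, in CPM on a log axis, with 1 point per library, KO and Control side by side. Itgam and Itgb5 stay near 0 in T and B cells of all 4 libraries, Sdc4 is high in B cells of both groups, and stromal values exist for the Control libraries only.

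The αv integrins had a different distribution. Itgav, their common alpha chain, was detected in every tested class at levels within a narrow range, from 23 and 19.8 CPM in B cells to 51.8 and 52.8 CPM in NK or ILC1 cells of the KO libraries. Stromal cells had 170.4 and 96.7 CPM in the Control libraries. They overlapped there with patrolling monocytes, which had 82.0 and 109.7 CPM from 30 UMIs over both libraries. C1q-expressing macrophages had 55.1 and 88.98 CPM in the Control libraries, from 37 UMIs over both. Among the small subsets, ILC1 had 101 and 97.04 CPM in the KO libraries, against 83.7 and 106 CPM in the Control libraries, and regulatory T cells had 209 and 55.5 CPM in the KO libraries, against 96.4 and 216 CPM in the Control libraries on 11 and 4 UMIs in KO and 2 and 15 UMIs in Control libraries. Itgb1, the most widely shared beta chain, was at 468 and 417 CPM in the KO libraries, against 358 and 357 CPM in the Control libraries in NK or ILC1 cells and at 273 and 215 CPM in the KO libraries, against 369 and 248 CPM in the Control libraries in T cells. In stromal cells it was at 338 and 262 CPM in the Control libraries, and B cells and neutrophils were lowest.

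Itgb3, which pairs with αv in the classical vitronectin receptor, was low in all classes. NK or ILC1 cells had 24.1 and 20.8 CPM in the KO libraries, against 35.1 and 27.7 CPM in the Control libraries, and within them ILC1 had 41.5 and 55.5 CPM in the KO libraries, against 71.7 and 49.98 CPM in the Control libraries. The T cells that make interleukin 17 and carry a γδ receptor had 32.2 and 52.1 CPM in the KO libraries, against 36.2 and 47.8 CPM in the Control libraries. Conventional dendritic cells held 0 and 0 UMIs of Itgb3 in the KO libraries and 1 and 0 in the Control libraries, and C1q-expressing macrophages held 0 and 0 in the KO libraries and 1 and 0 in the Control libraries. Itgb5, the other αv partner, was, like Itgam, near 0 in T and B cells. It was at 28.3 and 28.2 CPM in the KO libraries, against 101 and 84.99 CPM in the Control libraries in the monocyte or macrophage class and at 0.783 and 0 CPM in the KO libraries, against 3.101 and 1.602 CPM in the Control libraries in T cells. B cells held 1 and 0 Itgb5 UMIs in the KO libraries and 1 and 2 in the Control libraries. Within the monocytes and macrophages the C1q-expressing macrophages were highest, at 73.2 and 247 CPM in the KO libraries, against 198 and 251 CPM in the Control libraries, on 3 and 3 UMIs in KO and 54 and 62 UMIs in Control libraries. Stromal cells had 47.8 and 26.6 CPM in the Control libraries.

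The laminin-binding chain Itga6 was found in lymphocytes and in macrophages. T cells had 55.3 and 66.9 CPM in the KO libraries, against 29.98 and 29.7 CPM in the Control libraries, B cells had 29.7 and 29.96 CPM in the KO libraries, against 5.39 and 16.6 CPM in the Control libraries, and classical monocytes had 2.73 and 6.41 CPM in the KO libraries, against 5.71 and 9.96 CPM in the Control libraries. The C1q-expressing macrophages of the Control libraries had 173 and 64.7 CPM from 47 and 16 UMIs, and those of the KO libraries had 48.8 and 0 CPM from 2 and 0 UMIs. Sdc4, the heparan sulphate proteoglycan that acts as a co-receptor, was highest in stromal cells, at 1093 and 947 CPM in the Control libraries. Plasmacytoid dendritic cells, the interferon-producing dendritic cells, had 425 and 524 CPM in the KO libraries, against 665 and 519 CPM in the Control libraries. C1q-expressing macrophages had 561 and 165 CPM in the KO libraries, against 220.4 and 509.6 CPM in the Control libraries, from 23 and 2 UMIs in KO and 60 and 126 UMIs in Control libraries, and overlapped with the plasmacytoid dendritic cells in KO. B cells had 162 and 161 CPM in the KO libraries, against 154 and 161 CPM in the Control libraries, so that the 4 libraries lay close together. T cells had 7.31 and 3.74 CPM in the KO libraries, against 22.7 and 9.31 CPM in the Control libraries.

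These class differences were tested with the 2 KO and 2 Control libraries together and the library as a block, by edgeR's quasi-likelihood test with the monocyte or macrophage class set against each other class. The share of all genes that differed was 60.3% against T cells, 66.6% against B cells, 53.8% against NK or ILC1 cells, 19.9% against dendritic cells and 54.6% against neutrophils, so a difference between classes is a common result. Itgam was higher in monocytes or macrophages than in T cells by 6.82 ± 0.17 (SE) on the log2 scale (edgeR adjusted p = 6.99e-15) and higher than in NK or ILC1 cells by 1.06 ± 0.16 (SE) (edgeR adjusted p = 1.01e-06). Against neutrophils the log2 difference of Itgam was -1.01 ± 0.20 (SE) (edgeR adjusted p = 8.19e-06), and that of Itgb2 was -1.05 ± 0.20 (SE) (edgeR adjusted p = 1.72e-06). Itgb5 was higher in monocytes or macrophages than in all 5 other classes, by between 3.22 ± 0.42 (SE) over dendritic cells (edgeR adjusted p = 1.92e-05) and 7.05 ± 0.34 (SE) over B cells (edgeR adjusted p = 1.40e-15). Alone, Itgb5 had too few counts for a test in B cells, NK or ILC1 cells, dendritic cells and neutrophils. It entered those 4 comparisons through monocytes or macrophages, so they are a description and no support. Over T cells, where it was measured, the difference was 5.61 ± 0.31 (SE) (edgeR adjusted p = 5.92e-11). Itgax was lower in monocytes or macrophages than in NK or ILC1 cells (-2.24 ± 0.18 (SE), edgeR adjusted p = 2.96e-12) and dendritic cells (-1.96 ± 0.28 (SE), edgeR adjusted p = 4.54e-05). Itgb3 was also lower than in NK or ILC1 cells (-1.82 ± 0.37 (SE), edgeR adjusted p = 8.94e-05), through which it entered the test. Itgav did not pass against NK or ILC1 cells (-0.11 ± 0.18 (SE), edgeR adjusted p = 0.632), and neither did Itgb2 (-0.30 ± 0.13 (SE), edgeR adjusted p = 0.0607), which passed without Control 1 (adjusted p = 0.0114). Sdc4 was lower in monocytes or macrophages than in B cells (-1.19 ± 0.20 (SE), edgeR adjusted p = 8.62e-06) and higher than in T cells (2.82 ± 0.20 (SE), edgeR adjusted p = 2.01e-09). Its difference from dendritic cells, where Sdc4 alone had too few counts for a test, was 1.45 ± 0.41 (SE) (edgeR adjusted p = 0.01701). That difference did not pass without KO 1 (log2 difference 1.29), without Control 1 (1.06) or without Control 2 (1.40). Itga6 was lower in monocytes or macrophages than in T cells (-1.08 ± 0.43 (SE), edgeR adjusted p = 0.0389), but this did not pass without KO 1 (adjusted p = 0.194), without KO 2 (adjusted p = 0.155) or without Control 2 (adjusted p = 0.102).

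An integrin needs both chains in 1 cell, so cells were also scored for a UMI of each chain of a pair after every cell had been thinned to 1000 UMIs, with shallower cells left out. A share depends on this depth and is not the share of cells that carry the receptor. The chains of αMβ2 were found together in 6.64 and 7.81% in the KO libraries and 6.02 and 4.32% in the Control libraries of monocytes or macrophages (16 of 241 and 10 of 128 cells in KO, 18 of 299 and 16 of 370 cells in Control). Neutrophils had 17.4 and 4.65% in the KO libraries and 10.5 and 10.3% in the Control libraries. In NK or ILC1 cells the share was 6.39 and 4.63% in the KO libraries and 1.61 and 1.33% in the Control libraries (25 of 391 and 18 of 389 cells in KO, 2 of 124 and 3 of 226 cells in Control). The share in T cells, where free RNA would also be counted, was at most 0.0776% in any library, and no B cell held the pair. In NK or ILC1 cells both KO libraries lay above both Control libraries. The shares are given as values with no test, since the exact permutation test of 2 libraries against 2 cannot go below p = 0.333.

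The αXβ2 pair, Itgax with Itgb2, was found in 5.63 and 6.43% in the KO libraries and 4.03 and 3.98% in the Control libraries of NK or ILC1 cells and in 0 and 0% in the KO libraries and 4.95 and 6.03% in the Control libraries of conventional dendritic cells, with 0 of 27 and 0 of 29 cells in KO. The αvβ1 pair was found in 7.07 and 1.75% of stromal cells of the Control libraries, and in 1.53 and 1.799% in the KO libraries and 1.61 and 2.21% in the Control libraries of NK or ILC1 cells. The α6β1 pair was found in 0.877 and 0.965% in the KO libraries and 0.621 and 0.549% in the Control libraries of T cells. The αvβ5 pair was found in 1 KO cell and 1 Control cell of the monocyte or macrophage class, although both chains were detected in that class in all 4 libraries. αvβ5 and αvβ3 were not detectable as pairs at this depth beyond a few cells.

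The difference between KO and Control in the 10 genes was tested in 7 cell classes with edgeR's quasi-likelihood test. Each test had 2 KO and 2 Control libraries and adjustment over all genes of the class. Of the 10 genes, 5 calls in all were made in these classes, in 4 genes. In T cells 1 of the 10 measured genes, Itga6, was higher in KO, where 0.208% of all genes were called higher. In NK or ILC1 cells 1 of 8 measured genes, Itgam, was higher, where 0.514% of all genes were. In the monocyte or macrophage class 3 of 8 measured genes, Itgb5, Sdc4 and Itga6, were lower, where 1.08% of all genes were. In that class 1.29% of all genes were called in either direction. Itga6 entered the test in that class through its Control libraries, since its KO libraries lay under the low-count filter, so its call there is a description and no support. In B cells 0 of 7 measured genes were called, where 0.503% of all genes were and 1143 had an unadjusted p below 0.05. In classical monocytes 0 of 6 measured genes were called (0.147% of all genes called, 591 genes below an unadjusted p of 0.05), and so it was with 0 of 4 in conventional dendritic cells (0.0274%, 268 genes) and 0 of 2 in neutrophils (0.33%, 98 genes). DESeq2 also called 0 of the measured receptor genes in these 4 classes. Of all genes it called 26 of 9949 in B cells, 3 of 6136 in classical monocytes, 2 of 3644 in dendritic cells and 1 of 1513 in neutrophils. The median log2 fold change of the measured genes was -0.96 in monocytes or macrophages, against -0.01 over all genes of that class, and -0.32 in T cells and -0.16 in NK or ILC1 cells, against -0.004 over all genes in T cells and -0.01 in NK or ILC1 cells.

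**Figure D2:**
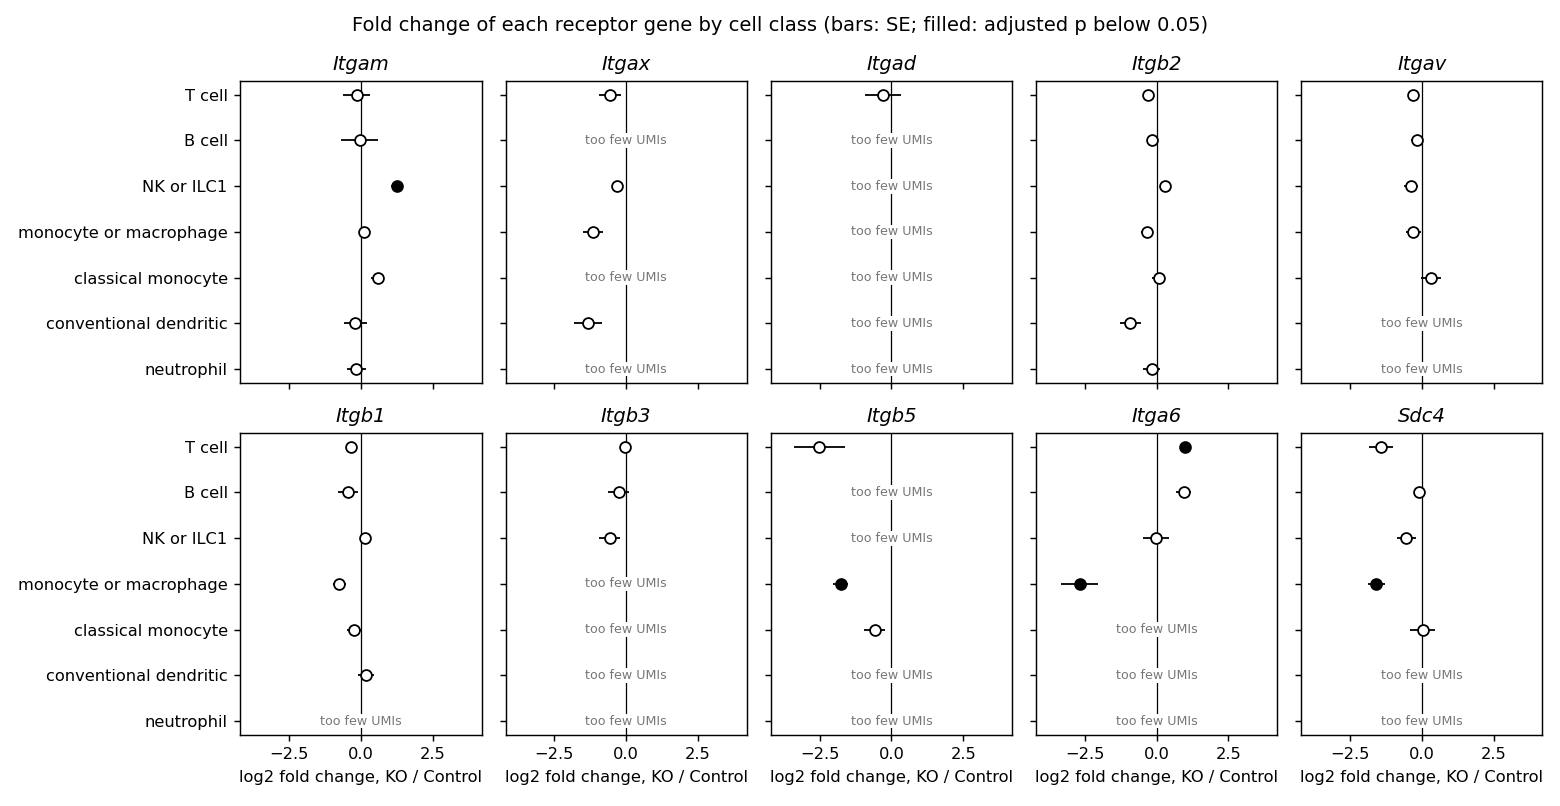
Log2 fold change, KO over Control, of each of the 10 genes in the tested classes, with bars of 1 SE, from edgeR fits with 2 libraries per group. Filled points passed an adjusted p of 0.05, which are Itga6 in T cells, Itgam in NK or ILC1 cells, and Itgb5, Sdc4 and Itga6 in the monocyte or macrophage class.

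Itgam, the alpha chain of the main leukocyte receptor of CYR61, was higher in NK or ILC1 cells of KO livers. It was at 214 and 187 CPM in the KO libraries, against 91.1 and 67.2 CPM in the Control libraries (log2 fold change 1.25 ± 0.21 (SE), edgeR adjusted p = 0.00207). Both KO libraries lay above both Control libraries by more than the spread within either group. The class changed in make-up at the same time. Conventional NK cells, the circulating killer lymphocytes that express Itgam as they mature, made up 57.2 and 60.1% of the class in the KO libraries and 30.7 and 39.6% in the Control libraries. The markers of these cells summed to 2170.5 and 2426 CPM in the KO libraries and 1234 and 1406 CPM in the Control libraries, and 5 of the 8 were higher in KO. The markers of ILC1, the resident counterpart, summed to 696 and 914 CPM in the KO libraries and 1241 and 1336 CPM in the Control libraries, and 3 of the 6 were lower. Haemoglobin and other erythroid markers summed to 3056 and 455 CPM in the KO libraries, against 45.6 and 7.904 CPM in the Control libraries. With hepatocyte and erythroid genes left out of the sums the log2 fold change of Itgam was 1.25 ± 0.21 (SE) (edgeR adjusted p = 0.00139). Within conventional NK cells alone, a subset defined after the data had been seen, Itgam was at 322 and 286 CPM in the KO libraries, against 202 and 146 CPM in the Control libraries (log2 fold change 0.74 ± 0.23 (SE)). That difference did not pass (edgeR adjusted p = 0.289), where 0.174% of all genes did. ILC1 held 1 and 4 UMIs in the KO libraries, against 3 and 3 UMIs in the Control libraries, too few to test. Without Control 2 the difference in the whole class was 0.98 with an edgeR adjusted p of 0.0941. The partner chain Itgb2 was at 351 and 396 CPM in the KO libraries, against 280.5 and 265 CPM in the Control libraries and did not pass (edgeR adjusted p = 0.513).

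**Figure D3:**
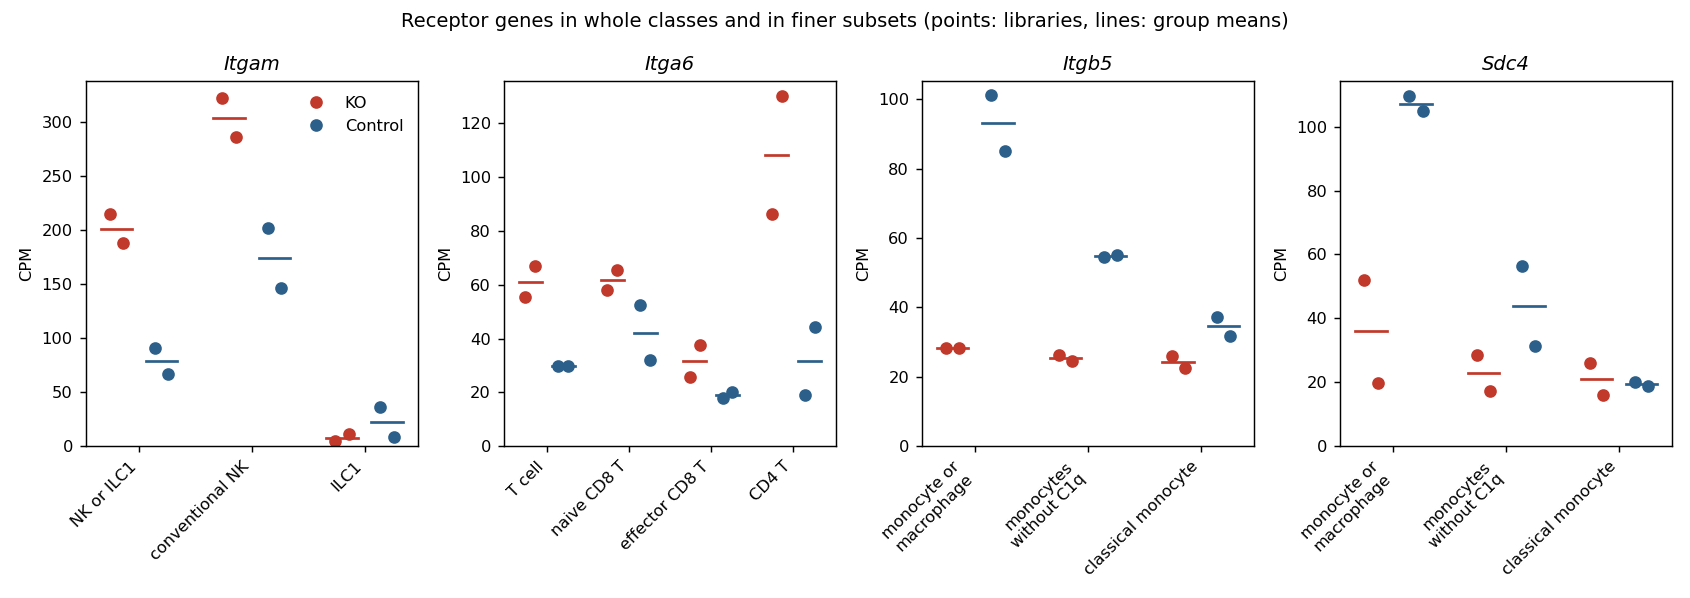
Level in CPM of Itgam in the NK or ILC1 class and its subsets, of Itga6 in T cells and their subsets, and of Itgb5 and Sdc4 in the monocyte or macrophage class and its subsets, with 1 point per library. KO points lie above Control points for Itgam and for Itga6 in the whole classes, and the 2 groups lie closer for Itgb5 and Sdc4 in classical monocytes than in the whole monocyte or macrophage class.

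Itga6, the alpha chain of the laminin and CYR61 receptor α6β1, was higher in KO T cells. It was at 55.3 and 66.9 CPM in the KO libraries, against 29.98 and 29.7 CPM in the Control libraries (log2 fold change 0.99 ± 0.15 (SE), edgeR adjusted p = 0.0299), and the groups did not overlap. The call did not pass without KO 1 (log2 fold change 1.13, edgeR adjusted p = 0.0776) or without KO 2 (log2 fold change 0.86, edgeR adjusted p = 0.242). T cell make-up differed as well. Naive CD8 T cells were 24.9 and 28.8% of T cells in the KO libraries and 3.59 and 19.8% in the Control libraries. Naive markers summed to 2678 and 2781 CPM in the KO libraries and 1286 and 1863 CPM in the Control libraries, with 1 of 8, Ccr7, called higher. Effector markers summed to 5713 and 7392 CPM in the KO libraries and 10227 and 8545 CPM in the Control libraries, with 1 of 7, Gzmk, called lower. The part of this make-up in the Itga6 result was measured only by splitting the class, after the data had been seen. Itga6 was at 58.2 and 65.6 CPM in the KO libraries, against 52.3 and 31.9 CPM in the Control libraries in naive CD8 T cells (log2 fold change 0.78 ± 0.22 (SE), edgeR adjusted p = 0.0729). CD4 T cells had 86.2 and 130.1 CPM in the KO libraries, against 19.1 and 44.3 CPM in the Control libraries (log2 fold change 1.42 ± 0.33 (SE), edgeR adjusted p = 0.0935). Effector CD8 T cells had 25.9 and 37.6 CPM in the KO libraries, against 18.1 and 20.2 CPM in the Control libraries (log2 fold change 0.58 ± 0.33 (SE), edgeR adjusted p = 0.832). All 3 subsets had both KO libraries above both Control libraries, and in no subset did the difference pass, where 1.09% of all genes did in naive CD8, 0.489% in CD4 and 0% in effector CD8 T cells (447 genes below an unadjusted p of 0.05). Itgb1, the beta chain of α6β1, was at 273 and 215 CPM in the KO libraries, against 369 and 248 CPM in the Control libraries in T cells, with overlapping groups (edgeR adjusted p = 0.406).

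In the monocyte or macrophage class the αvβ5 chain Itgb5 and the co-receptor Sdc4 were lower in KO livers. Itgb5 was at 28.3 and 28.2 CPM in the KO libraries, against 101 and 84.99 CPM in the Control libraries (log2 fold change -1.77 ± 0.26 (SE), edgeR adjusted p = 0.00184). Sdc4 was at 52.2 and 19.8 CPM in the KO libraries, against 109.6 and 105 CPM in the Control libraries (log2 fold change -1.58 ± 0.31 (SE), edgeR adjusted p = 0.0116). Neither gene's groups overlapped. Sdc4 did not pass without KO 2 (log2 fold change -1.07, edgeR adjusted p = 0.0872). Itga6 was at 4.35 and 7.06 CPM in the KO libraries, against 59.6 and 16.1 CPM in the Control libraries, a difference close to the threshold (log2 fold change -2.67 ± 0.64 (SE), edgeR adjusted p = 0.0497). Its Control values rested on Control 1, and without that library the edgeR adjusted p was 0.453 with a log2 fold change of -1.57. DESeq2 gave Itga6 an adjusted p of 0.0626.

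The class again differed in make-up. C1q-expressing macrophages, the tissue-type macrophages of the class, were 2.73 and 2.703% of it in the KO libraries and 23.9 and 14.3% in the Control libraries. Of the 8 markers of these macrophages, 6 were called lower, and the markers summed to 447 and 154 CPM in the KO libraries and 2634 and 1317 CPM in the Control libraries. Kupffer cell markers summed to 2.17 and 1.41 CPM in the KO libraries and 53.6 and 42.2 CPM in the Control libraries, and stellate or fibroblast markers to 1.09 and 0 CPM in the KO libraries and 101 and 4.96 CPM in the Control libraries. C1q-expressing macrophages were also left out, a choice made after the data had been seen. In the remaining monocytes Itgb5 was at 26.2 and 24.4 CPM in the KO libraries, against 54.7 and 54.96 CPM in the Control libraries (log2 fold change -1.19 ± 0.31 (SE)) and did not pass (edgeR adjusted p = 0.104), where 0.495% of all genes did. There Sdc4 was at 28.4 and 17.2 CPM in the KO libraries, against 56.4 and 31.5 CPM in the Control libraries (edgeR adjusted p = 0.4796). In classical monocytes alone Itgb5 was at 25.96 and 22.4 CPM in the KO libraries, against 37.1 and 31.9 CPM in the Control libraries (edgeR adjusted p = 0.659), and Sdc4 was at 25.96 and 16.03 CPM in the KO libraries, against 19.98 and 18.9 CPM in the Control libraries (edgeR adjusted p = 0.989). In patrolling monocytes, which crawl along vessel walls and were too few for a test, Itgb5 was at 26.4 and 55.1 CPM in the KO libraries, against 71.8 and 145 CPM in the Control libraries. Those levels came from 43 and 9 cells in the KO libraries and 72 and 89 cells in the Control libraries, so the KO values rest on few UMIs. Itga6 in classical monocytes was held by 2 and 4 UMIs in the KO libraries, against 2 and 10 UMIs in the Control libraries, and most of the Control UMIs of the whole class (47 and 16 of 50 and 26) lay in C1q-expressing macrophages.

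The αMβ2 chains of monocytes did not pass the test between KO and Control. In the whole class Itgam was at 246 and 282 CPM in the KO libraries, against 239 and 223 CPM in the Control libraries (edgeR adjusted p = 0.885). C1q-expressing macrophages, a smaller share of the class in KO as given above, had 415 and 465 CPM of Itgam in the Control libraries. They held 19 and 1 Itgam UMIs in the KO libraries, against 113 and 115 in the Control libraries. Their part in the whole-class comparison of Itgam was not tested. In classical monocytes, the monocytes that enter inflamed tissue, Itgam was at 254 and 284 CPM in the KO libraries, against 159.8 and 167 CPM in the Control libraries (log2 fold change 0.58 ± 0.22 (SE)). The KO libraries lay above the Control libraries there, and the difference did not pass (edgeR adjusted p = 0.408). Itgb2 in classical monocytes was at 198 and 202 CPM in the KO libraries, against 206 and 151 CPM in the Control libraries (edgeR adjusted p = 0.958). Itgb1 in the monocyte or macrophage class was at 128 and 114 CPM in the KO libraries, against 228 and 166 CPM in the Control libraries (log2 fold change -0.75 ± 0.22 (SE), edgeR adjusted p = 0.1303), and Itgax at 18.5 and 21.2 CPM in the KO libraries, against 55.99 and 32.3 CPM in the Control libraries (log2 fold change -1.16 ± 0.35 (SE), edgeR adjusted p = 0.141). Both were lower in each KO library than in each Control library, and neither passed with all 4 libraries. Without Control 2 both passed, Itgb1 with a log2 fold change of -0.98 (edgeR adjusted p = 0.00475) and Itgax with -1.58 (edgeR adjusted p = 0.00184), and Itgax also passed with no filter on low counts (edgeR adjusted p = 0.0385). Itgav there was at 36.9 and 46.6 CPM in the KO libraries, against 48.8 and 48.4 CPM in the Control libraries (edgeR adjusted p = 0.7702).

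In the remaining classes no other receptor gene passed with all 4 libraries. Itga6 in B cells was at 29.7 and 29.96 CPM in the KO libraries, against 5.39 and 16.6 CPM in the Control libraries (log2 fold change 0.95 ± 0.26 (SE), edgeR adjusted p = 0.136), from 147 and 124 UMIs in KO and 4 and 61 UMIs in Control libraries, with both KO libraries above both Control libraries. It passed with no filter on low counts (edgeR adjusted p = 0.00628) and without Control 2, where the log2 fold change was 2.38 (edgeR adjusted p = 0.00352). Itgb1 in B cells was at 30.1 and 13.5 CPM in the KO libraries, against 49.8 and 20.7 CPM in the Control libraries (log2 fold change -0.45 ± 0.36 (SE), edgeR adjusted p = 0.6903). It passed without KO 1 (-1.22, edgeR adjusted p = 0.009501) and without Control 2 (-1.24, edgeR adjusted p = 0.0186). Sdc4 in B cells differed by -0.09 ± 0.13 (SE) on the log2 scale (edgeR adjusted p = 0.859). Sdc4 in T cells was at 7.31 and 3.74 CPM in the KO libraries, against 22.7 and 9.31 CPM in the Control libraries (log2 fold change -1.42 ± 0.42 (SE), edgeR adjusted p = 0.169). There, stellate or fibroblast markers, which these cells should lack, summed to 0.522 and 0.6602 CPM in the KO libraries and 12.1 and 3.905 CPM in the Control libraries, and their part in the result was not tested. The Sdc4 difference in T cells passed without Control 2 (edgeR adjusted p = 0.00751) and with no filter on low counts (edgeR adjusted p = 2.10e-06). In conventional dendritic cells Itgax was at 133 and 37.8 CPM in the KO libraries, against 187 and 156 CPM in the Control libraries (log2 fold change -1.33 ± 0.49 (SE), edgeR adjusted p = 0.535). Without KO 1 that difference was -2.30 and passed (edgeR adjusted p = 0.000932). Neutrophil Itgam was at 516 and 316 CPM in the KO libraries, against 338 and 519 CPM in the Control libraries, with overlapping groups (edgeR adjusted p = 0.978).

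Whether the effect of KO differed between classes was tested as a class by genotype term. KO effects in monocytes or macrophages were set against those in T cells, where 0.682% of all genes differed, B cells (0.325%), NK or ILC1 cells (0.178%), dendritic cells (0.472%) and neutrophils (0.199%). The median difference over all genes was between -0.06 and 0.39 on the log2 scale, the highest being that against neutrophils. For Itga6 the log2 difference between the effect in monocytes or macrophages and that in T cells was -3.52 ± 0.57 (SE) (edgeR adjusted p = 0.000249). Against B cells it was -3.44 ± 0.63 (SE) (edgeR adjusted p = 0.00234). Without Control 1 the difference against B cells was -2.29 (edgeR adjusted p = 0.0484), and without Control 2 it was -5.83 (edgeR adjusted p = 1.37e-11). The low Itga6 counts of KO monocytes or macrophages and the share of C1q-expressing macrophages given above apply to these differences too. The effect on Sdc4 differed from that in B cells by -1.48 ± 0.35 (SE) (edgeR adjusted p = 0.0357), and without KO 2 by -1.01 (adjusted p = 0.737). For Itgam the difference between monocytes or macrophages and NK or ILC1 cells was -1.19 ± 0.29 (SE) and did not pass (edgeR adjusted p = 0.0757). It passed without Control 1 (adjusted p = 0.0104).

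The sum over all kept cells gives which cells held each receptor's RNA in the suspension. In such a sum, fewer cells of a type and less RNA per cell cannot be told apart. Here 1 of the 10 genes, Itga6, was higher in KO and 2, Itgb5 and Sdc4, were lower, where 1.43% of all genes were called higher and 7.08% lower. Itga6 was at 41.3 and 47.4 CPM in the KO libraries, against 24.6 and 22.7 CPM in the Control libraries (log2 fold change 0.95 ± 0.13 (SE), edgeR adjusted p = 0.0206), and did not pass without KO 1 (adjusted p = 0.0773) or KO 2 (adjusted p = 0.143). Itgb5 was at 2.51 and 1.66 CPM in the KO libraries, against 21.8 and 10.5 CPM in the Control libraries (log2 fold change -2.86 ± 0.39 (SE), edgeR adjusted p = 0.0207), and without KO 2 had an adjusted p of 0.0609. Sdc4 was at 61.1 and 53.9 CPM in the KO libraries, against 241 and 105 CPM in the Control libraries (log2 fold change -1.51 ± 0.33 (SE), edgeR adjusted p = 0.0488), and did not pass without KO 1 (adjusted p = 0.1601) or KO 2 (adjusted p = 0.211).

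The sources of this RNA differed between groups. Stromal cells held 66.2 and 41.4% of the Sdc4 UMIs of the Control libraries and none in the KO libraries, where B cells held 76.6 and 70.8% of them, against 5.799 and 27.5% in the Control libraries. Stromal cells also held 43.01 and 12.9% of the Itgav UMIs and 32.02 and 11.7% of the Itgb5 UMIs of the Control libraries. C1q-expressing macrophages held 6.98 and 10.3% of Itgb5 UMIs in the KO libraries and 30.3 and 28.97% in the Control libraries. NK or ILC1 cells held 35.7 and 41.7% of Itgam UMIs in the KO libraries and 6.897 and 6.85% in the Control libraries, while the level of Itgam over all kept cells was 39.3 and 34.6 CPM in the KO libraries, against 46.1 and 36.5 CPM in the Control libraries (edgeR adjusted p = 0.658).

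**Figure D4:**
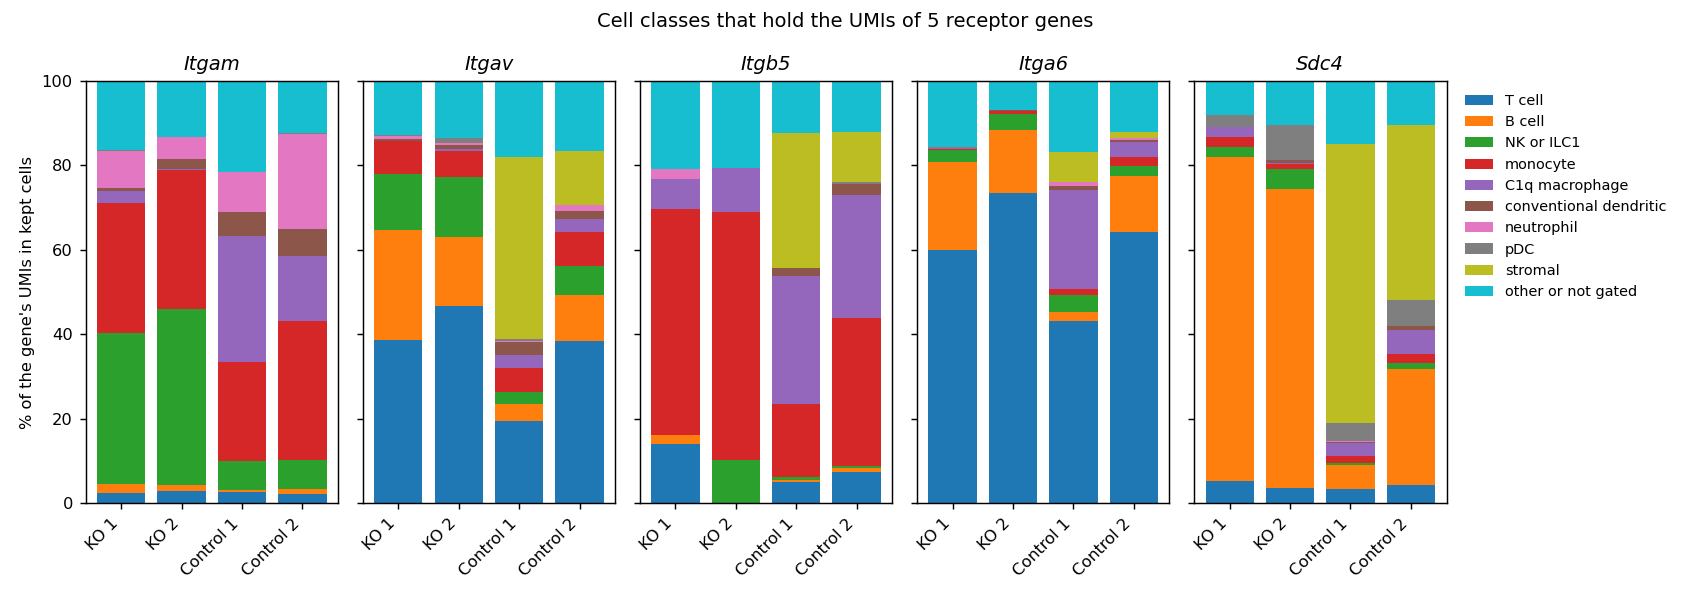
Percent of each receptor gene's UMIs that each cell class held, in each library, over all kept cells. Stromal cells contribute to Sdc4, Itgav and Itgb5 in the Control libraries only, and NK or ILC1 cells hold a larger part of Itgam in the KO libraries than in the Control libraries.

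In monocytes or macrophages, where 773 of all genes had an unadjusted p below 0.05, edgeR called 0 of 4 measured other alpha chains (Itga4, Itga1, Itgal and Itga5), 0 of 1 other beta chain (Itgb7), 0 of 2 other surface proteoglycans (Sdc3 and Cd44) and 0 of 24 genes of integrin activation and adhesion signalling, among which Lims1, Plcg2, Skap2 and Cd47 had the smallest p. Of 8 measured other ligands of these integrins 1 was lower, Spp1, which encodes osteopontin, where 1.08% of all genes were. Spp1 was at 30.4 and 2.82 CPM in the KO libraries, against 185 and 259 CPM in the Control libraries in that class (log2 fold change -3.68 ± 0.41 (SE), edgeR adjusted p = 9.89e-05). Its KO 2 value lay under the low-count filter, so it entered the test with the help of its Control libraries. The class also differed in its share of C1q-expressing macrophages, as given above, and their part in the Spp1 difference was not tested. In T cells Spp1 was also the only listed gene called, where 0.417% of all genes were called lower, at 0.1305 and 0.11003 CPM in the KO libraries, against 3.45 and 3.805 CPM in the Control libraries (log2 fold change -4.81 ± 0.64 (SE), edgeR adjusted p = 0.0224), and it entered the test through its Control libraries. Markers of other cells were lower in KO T cells as well. Neutrophil markers summed to 51.8 and 40.2 CPM in the KO libraries and 99.2 and 172 CPM in the Control libraries, with 2 of 7 measured called lower, S100a8 and S100a9, and monocyte or macrophage markers to 98 and 76.8 CPM in the KO libraries and 147 and 106 CPM in the Control libraries, with 1 of 9, Lyz2. Of the stellate or fibroblast markers, whose sums are given above, the 1 that was measured, Dcn, was called lower. Their part in the Spp1 result was not tested. In NK or ILC1 cells the α2 chain Itga2, a label of conventional NK cells, was the only listed gene called, where 0.514% of all genes were called higher, at 138 and 158.5 CPM in the KO libraries, against 56.1 and 71.1 CPM in the Control libraries (log2 fold change 1.001 ± 0.21 (SE), edgeR adjusted p = 0.0158). In B cells, classical monocytes, conventional dendritic cells and neutrophils edgeR called 0 of the listed genes. No CCN ligand had enough counts to be tested in any of the 7 classes. Over all kept cells, where 7.08% of all genes were called lower and 1.43% higher, 3 of 4 measured CCN ligands were lower, Ccn1, Ccn3 and Ccn4, as were 2 of 3 measured other beta chains (Itgb4 and Itgb8), 3 of 7 other proteoglycans (Sdc2, Gpc3 and Gpc4) and 7 of 13 other ligands. Of 11 measured other alpha chains 1 was higher, Itga2, and 1 lower, Itga9, and of 29 signalling genes 5 were lower. Stellate or fibroblast markers there summed to 1.34 and 1.603 CPM in the KO libraries and 1936 and 810.1 CPM in the Control libraries. Stromal cells were found in Control libraries only, so a gene of these cells can enter the test through that group alone and come out lower. In these counts the absence of stromal cells and less RNA per cell cannot be told apart.

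Genes with the most similar pattern across the 6 cell classes that share no cell were found by Pearson's r of the mean log2(CPM + 1) over the 4 libraries, among 9697 genes. The 6 points share libraries and depth, and the values are a description. For Itgam they were Tyrobp (r = 0.998), Fuca2 (r = 0.997), Ugt1a7c (r = 0.996), for Itgb5 Ctdspl (r = 0.995), Pf4 (r = 0.993), Cxcl14 (r = 0.992), and for Itgav Tnfsf12 (r = 0.986), Vps29 (r = 0.979), Yif1a (r = 0.976). For Itga6 they were 4930532G15Rik (r = 0.992), Ranbp10 (r = 0.986), Zfp64 (r = 0.985), and for Sdc4 Pck2 (r = 0.989), Atf4 (r = 0.984), Ube2k (r = 0.971). Tyrobp encodes DAP12, a signalling adaptor of myeloid and NK cells, and Pf4 encodes platelet factor 4.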

How the data were processed

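RNA of single liver cells was counted in 4 droplet libraries. The deposited values are raw counts of UMIs per gene and cell, made by the authors with Cell Ranger 3.1.0 on mm10, per the submitters' processing notes. Cells were kept with 500 or more UMIs, 250 or more genes and no more than 25% mitochondrial UMIs. A class was given to a cell whose marker detections gave it a probability of at least 0.95, from rates fitted in 5 rounds, with at least 2 of its own markers seen. Cells with 3 or more markers of each lineage of a listed pair were left out as doublets. The pair of stromal cells with phagocytes needed 6 or more phagocyte markers. T with NK cells, and neutrophils with NK cells or monocytes, were not among the listed pairs. The limits of this gate were set after the files had been seen. The genes described and all gene lists were chosen with earlier results of these data known.

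UMIs were summed per library and class (at least 20 cells in each library) and tested with edgeR 4.0.16 (TMM, filterByExpr, quasi-likelihood), with Benjamini-Hochberg adjustment over all genes of the class and a threshold of 0.05. Genes that failed filterByExpr, which can pass a gene through 1 group, were not measured. Intervals and limits on counts cover counting error only. Named are all 10 receptor genes, Ccn1, the up to 4 genes of each list with the smallest p in monocytes or macrophages, list members where 5 or fewer were called, and the 3 genes most like each of Itgam, Itgav, Itgb5, Itga6 and Sdc4. On simulated counts the test recovered 8.51% of 2-fold and 80.6% of 4-fold changes in monocytes or macrophages over 6768 genes, and 16% and 91.8% in T cells over 11305 genes. Alternatives were DESeq2 1.42.0, the replicate number as a block, relative log expression (RLE) size factors, no low-count filter, other cell filters, removal of the highest Scrublet scores, Leiden clusters named from the same markers, hepatocyte and haemoglobin genes left out, and each library left out in turn.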

Additional observations from a re-analysis of the deposited data

Results flagged for a closer look

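The effect of KO on 2 receptor genes differed between cell classes by the class by genotype term of edgeR's quasi-likelihood test. For Itga6 the log2 effect in monocytes or macrophages minus that in T cells was -3.52 ± 0.57 (SE) (edgeR adjusted p = 0.000249), from 4.35 and 7.06 CPM in the KO libraries, against 59.6 and 16.1 CPM in the Control libraries in monocytes or macrophages and 55.3 and 66.9 CPM in the KO libraries, against 29.98 and 29.7 CPM in the Control libraries in T cells. Minus that in B cells it was -3.44 ± 0.63 (SE) (edgeR adjusted p = 0.00234). With 1 library left out the difference lay between -4.50 and -2.51 against T cells and between -5.83 and -2.29 against B cells, the lowest without Control 2 and the highest without Control 1. C1q-expressing macrophages, which held 47 and 16 of the 50 and 26 Itga6 UMIs of the class in the Control libraries, were 2.73 and 2.703% of it in the KO libraries and 23.9 and 14.3% in the Control libraries. For Sdc4 the effect in monocytes or macrophages minus that in B cells was -1.48 ± 0.35 (SE) (edgeR adjusted p = 0.0357). With 1 library left out that difference lay between -2.40 and -1.01, the highest without KO 2. C1q-expressing macrophages held 186 Sdc4 UMIs over both Control libraries, and their part in the difference was not tested. In each of the 3 comparisons every KO library lay below every Control library in monocytes or macrophages. Sdc4 in B cells was at 162 and 161 CPM in the KO libraries, against 154 and 161 CPM in the Control libraries.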

How the results depend on the processing

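No fold change of a receptor gene changed sign past the threshold under any alternative. With 1 library left out, 18 calls were lost and 17 gained, and 532 values kept their side. Under the other settings 5 were lost and 15 gained, and 428 kept their side, and in subsets of a class 6 were lost. The causes were not tested, except that subsets and left-out libraries hold fewer cells. Among the changes not given above, Itga6 in monocytes or macrophages did not pass with at most 10% mitochondrial UMIs (adjusted p = 0.0613), at least 1000 UMIs (adjusted p = 0.0616) or without the highest doublet scores (adjusted p = 0.0556). Calls gained included Itgb5 in T cells with no low-count filter (adjusted p = 0.0331), Sdc4 in NK or ILC1 cells of Leiden clusters (adjusted p = 0.0235), Itgav in all kept cells with DESeq2 (adjusted p = 0.0481), and, without Control 2, Itgax in T cells (adjusted p = 0.02397) and Itgav, Itgb1 and Itgax in all kept cells (adjusted p = 0.000398, 0.0341 and 0.000548).

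The number of genes changed by KO moved with the setting. DESeq2 called 26 in B cells, 38 in NK or ILC1 cells, 42 in monocytes or macrophages, 3 in classical monocytes, 2 in dendritic cells, 1 in neutrophils and 2008 in all kept cells, where edgeR called 50 in B cells, 83 in NK or ILC1 cells, 91 in monocytes or macrophages, 9 in classical monocytes, 1 in dendritic cells, 5 in neutrophils and 1219 in all kept cells. Relative log expression size factors gave 44 in T cells and 0 in dendritic cells, against 72 in T cells and 1 in dendritic cells. With no filter on low counts the numbers were 591 in T cells, 183 in B cells, 273 in monocytes or macrophages, 65 in classical monocytes, 58 in dendritic cells and 9 in neutrophils. Cells with at least 1000 UMIs gave 3 in classical monocytes and 0 in neutrophils, and Leiden clusters 87 in B cells, 1.6e+02 in NK or ILC1 cells, 174 in monocytes or macrophages and 2 in neutrophils. Leaving out 1 library gave 13 to 593 genes in T cells, 27 to 175 in B cells, 56 to 106 in NK or ILC1 cells, 107 to 266 in monocytes or macrophages, 19 to 106 in classical monocytes, 0 to 123 in dendritic cells, 5 to 11 in neutrophils and 247 to 5083 in all kept cells. For differences between KO effects it gave 28 to 178 genes against T cells, 15 to 51 against B cells, 17 to 33 against NK or ILC1 cells, 14 to 123 against dendritic cells and 3 to 57 against neutrophils, and for monocytes or macrophages against dendritic cells 839 to 1358 genes. The share with both αMβ2 chains, KO minus Control, was 2.05 percentage points in monocytes or macrophages and 4.04 in NK or ILC1 cells, and with no thinning 14.2 and 13.4. For α6β1 in T cells it was 0.336, with 0.494 at 1500 UMIs and 2.94 with no thinning.

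The labels give replicate numbers and no batch, so the main fits did not pair same-numbered libraries. Deviations of same-numbered libraries correlated by -0.0620 in neutrophils to 0.163 in T cells over the 7 classes. KO 1 and Control 1 had medians of 1913 and 1225 UMIs per cell, below KO 2 and Control 2 at 2869 and 2241. Whether same-numbered libraries share a source cannot be told from these values. With the replicate block 747 in T cells, 462 in B cells, 292 in NK or ILC1 cells, 286 in monocytes or macrophages, 58 in classical monocytes, 3 in dendritic cells, 1 in neutrophils and 2904 in all kept cells were called, and Itgb5 and Sdc4 in T cells, Itgb1 and Itga6 in B cells, Itgb1 and Itgax in monocytes or macrophages and Itgav in all kept cells passed as well. Leiden clusters gave no classical monocyte class, and patrolling against classical monocytes and type 1 against type 2 dendritic cells were not run because some libraries held fewer than 20 cells. Control 1 was the shallowest library, and the part of depth in the number of calls was not tested.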

Other observations

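Small classes and subsets held a few receptor signals not described above. Of these, only the γδ T cells had enough cells in each library for a test. In plasma cells, the antibody-secreting descendants of B cells, Itgam was at 182 and 315 CPM in the KO libraries, against 84.01 and 41.03 CPM in the Control libraries, from 11 and 24 UMIs in the KO libraries, against 4 and 1 UMIs in the Control libraries. Itgax in patrolling monocytes was at 172 and 276 CPM in the KO libraries, against 82.02 and 59.8 CPM in the Control libraries, from 13 and 5 UMIs in the KO libraries, against 8 and 12 UMIs in the Control libraries. In type 2 conventional dendritic cells Itgax was at 40.6 and 61.8 CPM in the KO libraries, against 229 and 189.8 CPM in the Control libraries, and Itgam was at 122 and 247 CPM in the KO libraries, against 191 and 144 CPM in the Control libraries. These levels came from 12 and 9 cells in the KO libraries and 49 and 55 cells in the Control libraries, so the KO values rest on few UMIs. In type 1 conventional dendritic cells Itgam had 0 and 3 UMIs in the KO libraries, against 1 and 0 UMIs in the Control libraries. Sdc4 in the γδ T cells that make interleukin 17 was at 122 and 39.1 CPM in the KO libraries, against 66.4 and 67.5 CPM in the Control libraries, above the level of T cells as a whole in each library. Sdc4 in regulatory T cells was at 37.96 and 0 CPM in the KO libraries, against 289 and 202 CPM in the Control libraries, from 2 and 0 UMIs in the KO libraries, against 6 and 14 UMIs in the Control libraries.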
